A study of Gallus gallus with 12 samples.

Results

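The expression of 9 genes of the oligodendrocyte lineage and of myelin was examined in the brain of chicken embryos on embryonic day 18. The genes were PDGFRA, CSPG4, OLIG2, SOX10, NKX6-2, UGT8, MBP, CLDN11 and TMEM88B. They were taken by gene name from a count table of 30742 genes and transcripts, in which each name had 1 entry. RNA-seq had been done on White Leghorn embryos in 4 groups of 3 libraries. The control groups (CT) came from eggs kept at 37.8 °C, with 1 group labelled hypothalamus and 1 labelled whole brain. The heat-exposed groups (ETM, embryonic thermal manipulation) came from eggs held at 39.5 °C between days 13 and 18, again with 1 group of each tissue label. All 4 groups were of the same strain and age and carried 1 batch label. The replicates are called biological in the study's design, but whether each came from a single embryo or a pool is not given. The p-values below therefore set group differences only against the spread between these libraries, which need not be the spread between embryos.

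Oligodendrocytes are the glial cells that wrap axons of the central nervous system in myelin, a stack of lipid-rich membrane that speeds conduction. They arise from precursor cells that divide and migrate in response to platelet-derived growth factor, are specified by transcription factors such as OLIG2 and SOX10, and switch on lipid enzymes and membrane proteins of myelin as they mature. These were bulk samples of tissue, so fewer cells of a type and less RNA per cell cannot be told apart in any value below.

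Total counts ranged from 13309467 to 18317019 per library, and the 9 genes together took 0.195% to 0.272% of the counts in whole brain and 0.515% to 0.931% in the libraries labelled hypothalamus. Of 16201 genes tested, 16.7% were higher and 17.6% lower under the hypothalamus label in CT embryos, at an adjusted p below 0.05. Of 6 hypothalamus markers, 3 were higher and 3 lower in that comparison. The higher ones, against CT whole brain, were OTP (6.20 to 43.1 against 5.32 to 6.10 CPM, counts divided by the effective library size), SIM1 (a median of 2.18 against 1.16 CPM) and HMX3 (2.39 to 5.68 against 0.843 to 1.28 CPM). The lower ones were AVP (7.99 to 9.61 against 62.2 to 65.1 CPM), POMC (0 to 0.218 against 1.95 to 5.53 CPM) and NKX2-1. NKX2-1, a transcription factor that defines much of the hypothalamus, was at 0 to 0.138 CPM in the CT libraries labelled hypothalamus and at 4.86 to 6.53 CPM in CT whole brain. EN1, a factor of the midbrain and anterior hindbrain, was at 52.6 to 66.7 CPM in the former and 6.68 to 9.18 CPM in the latter. The samples are therefore called the libraries labelled hypothalamus throughout. In ETM hypothalamus library 1 the deposited FPKM values, which are also scaled to gene length, did not match the deposited counts. The reads recovered from that FPKM column summed to 12161593 against 13326994 in the count column. For several results that rest on this library, values without it or with the recovered reads are therefore also given.

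The receptor and the proteoglycan of precursor cells come first. PDGFRA (ENSGALG00010013621, chr4:64913447-64949864, minus strand, build GRCg7b) encodes the receptor through which platelet-derived growth factor A keeps oligodendrocyte precursors dividing. Its level was 153, 139 and 139 CPM in the 3 CT whole brain libraries and 156, 153 and 138 CPM in the 3 ETM ones. In the libraries labelled hypothalamus it was 190.0, 201 and 182 CPM in CT and 151, 216 and 179 CPM in ETM. The 4 groups of PDGFRA formed a continuous order in which every neighbouring pair overlapped. CSPG4 (ENSGALG00010021469, chr10:2732007-2750541, minus strand) encodes the NG2 proteoglycan, which marks the same precursors and also pericytes. It stood at 37.5, 40.6 and 37.0 CPM in CT whole brain and at 20.1, 21.2 and 22.8 CPM in ETM whole brain. CT hypothalamus gave 49.6, 57.5 and 92.4 CPM for CSPG4, and ETM hypothalamus gave 75.2, 63.4 and 55.9 CPM. Both hypothalamus groups of CSPG4 overlapped and lay above both whole brain groups, and within whole brain every ETM library lay below every CT library.

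Of the transcription factors, OLIG2 and SOX10 had their groups arranged as CSPG4 did. OLIG2 (ENSGALG00010010227, chr1:105274469-105276737, plus strand), a basic helix-loop-helix factor that specifies the lineage, was at 184, 208 and 183 CPM in CT whole brain and at 104, 98.6 and 92.1 CPM in ETM whole brain. Under the hypothalamus label OLIG2 was at 324, 388 and 338 CPM in CT and 492, 421 and 365 CPM in ETM. The hypothalamus groups overlapped, and the whole brain groups did not. SOX10 (ENSGALG00010010407, chr1:51095086-51104254, plus strand), an HMG-box factor that is kept from precursor to mature cell and activates myelin genes, was at 78.3, 113 and 97.9 CPM in CT whole brain and 53.2, 58.5 and 41.7 CPM in ETM whole brain. The corresponding hypothalamus values of SOX10 were 198, 266 and 239 CPM in CT and 299.9, 214 and 243 CPM in ETM. SOX10 too overlapped between the hypothalamus groups and not between the whole brain groups. NKX6-2 (ENSGALG00010001577, chr6:36046532-36049012, minus strand), a homeobox factor of myelinating oligodendrocytes in the mouse, was the scarcest of the 3 in CPM, with 5.90, 6.90 and 6.44 in CT whole brain and 4.27, 5.36 and 4.56 in ETM whole brain. In the libraries labelled hypothalamus NKX6-2 had 25.5, 32.7 and 25.3 CPM in CT and 39.4, 33.8 and 40.0 CPM in ETM. It was the only 1 of the 9 genes whose 4 groups were all separate, in the order ETM hypothalamus, CT hypothalamus, CT whole brain, ETM whole brain.

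Of the myelin genes, UGT8 and MBP were arranged by tissue alone. UGT8 (ENSGALG00010003761, chr4:55767004-55811257, minus strand) encodes the enzyme that adds galactose to ceramide, the step that yields the main glycolipid of myelin. Its CPM was 126, 169.6 and 142 in CT whole brain and 147, 188 and 132 in ETM whole brain, against 444, 774 and 579 in CT hypothalamus and 771, 724 and 700.3 in ETM hypothalamus. MBP (ENSGALG00010007781, chr2:90091416-90200724, plus strand) encodes myelin basic protein, which holds the cytoplasmic faces of the myelin membrane together. Whole brain had 1213, 1722 and 1545 CPM of MBP in CT and 1772, 2193 and 1519 CPM in ETM. The libraries labelled hypothalamus had 3488, 7086 and 4945 CPM in CT and 7518, 5675 and 7038 CPM in ETM. For both genes CT and ETM overlapped within each tissue, and every hypothalamus library lay above every whole brain library. RefSeq lists 13 transcripts at the MBP locus and the table has 1 value for the gene, so classic MBP and the longer golli products known from the mouse cannot be told apart.

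CLDN11 (ENSGALG00010017612, chr9:19482392-19490823, minus strand) encodes the claudin that forms the tight junctions between the layers of central myelin. It was at 105, 153 and 127 CPM in CT whole brain and at 64.0, 63.2 and 54.0 CPM in ETM whole brain. Under the hypothalamus label CLDN11 was at 237, 429 and 339 CPM in CT and 595, 341 and 325 CPM in ETM. The first ETM library stood well above the other two, the hypothalamus groups overlapped, and the whole brain groups were separate. TMEM88B (ENSGALG00010017749, chr21:2196118-2200217, minus strand) encodes a small transmembrane protein that marks mature oligodendrocytes in the mouse. It was at 20.2, 20.2 and 24.2 CPM in CT whole brain, 28.4, 22.3 and 16.9 CPM in ETM whole brain, 28.3, 38.8 and 47.3 CPM in CT hypothalamus and 70.9, 74.9 and 72.8 CPM in ETM hypothalamus. ETM hypothalamus stood apart from the other 3 groups of TMEM88B, and the whole brain groups overlapped. No other entry of the table overlapped any of the 9 genes.

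**Figure D1:**
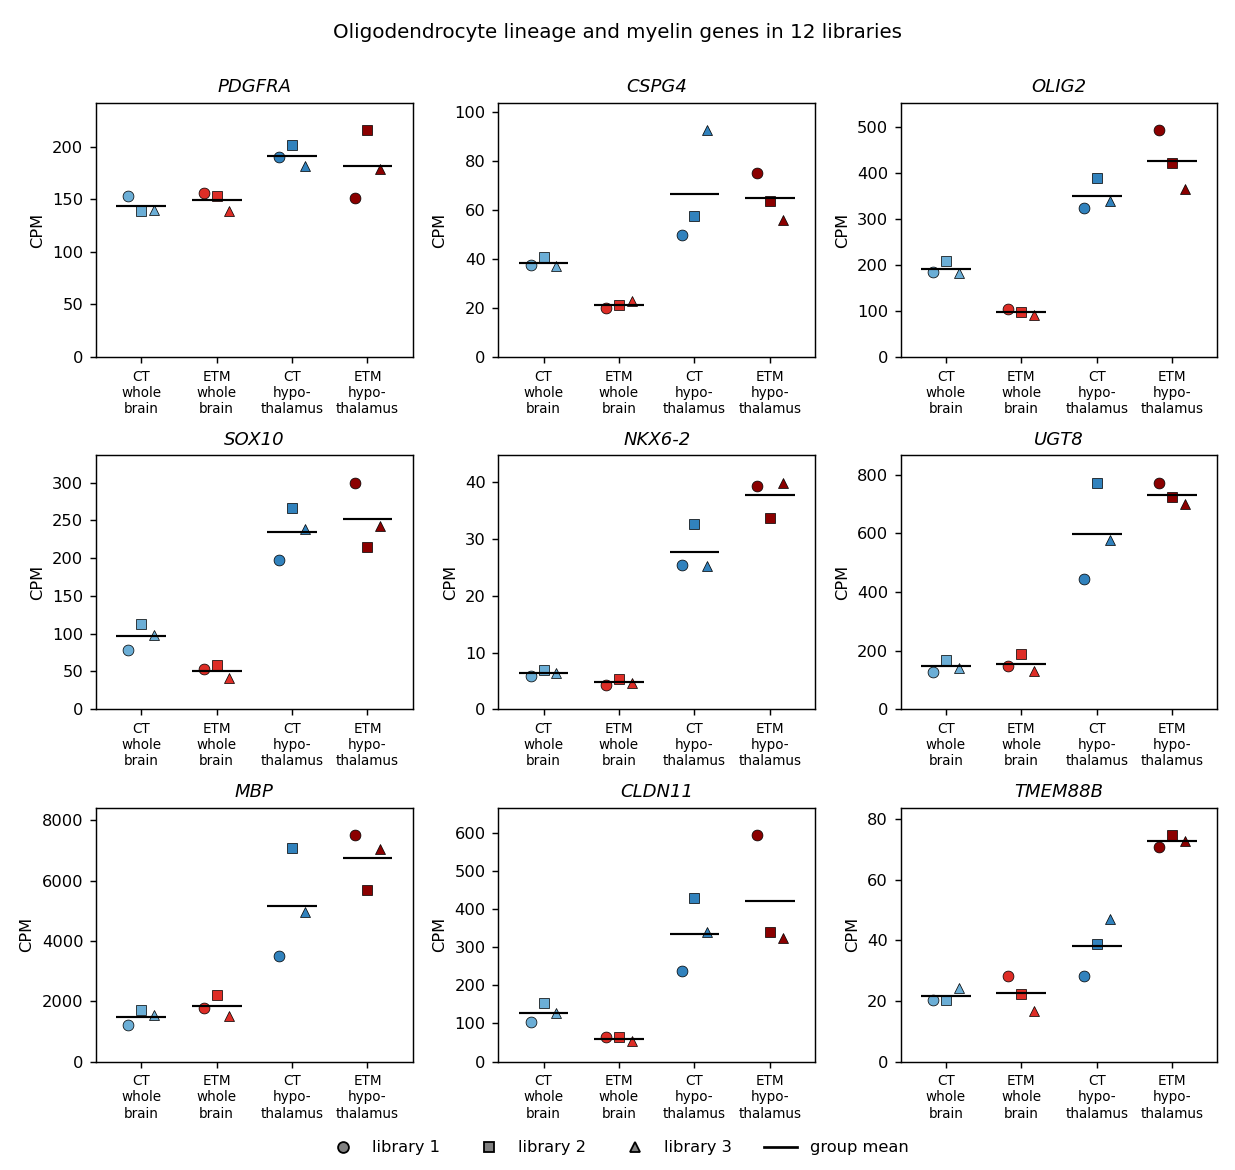
CPM (vertical axis, from 0) of each of the 9 genes in the 12 libraries, by group on the horizontal axis, with 1 symbol per library and a line at the group mean. CSPG4, OLIG2, SOX10, NKX6-2 and CLDN11 were lower in ETM than in CT whole brain without overlap, and all 9 genes had their highest group mean in libraries labelled hypothalamus.

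Set per length, as CPM per kilobase of exon, the order of the 9 genes differed between the groups. In CT whole brain OLIG2 (93.5 ± 6.93, SD, n = 3), MBP (90.5 ± 15.7), CLDN11 (76.1 ± 14.3) and UGT8 (54.0 ± 8.13) led, each overlapping the next. SOX10 followed at 22.9 ± 4.13, and CSPG4 and NKX6-2 were lowest at 4.90 ± 0.254 and 3.72 ± 0.289 CPM per kilobase. In ETM whole brain MBP led alone at 111 ± 20.6, ahead of UGT8 at 57.5 ± 10.8 and OLIG2 at 47.9 ± 2.90, which overlapped. In CT hypothalamus MBP (313 ± 110), UGT8 (221 ± 61.3), CLDN11 (199 ± 57.0) and OLIG2 (171 ± 16.3) again overlapped in that order, and CSPG4 was lowest at 8.49 ± 2.91. In ETM hypothalamus MBP had the highest mean at 408 ± 57.9 CPM per kilobase, with UGT8 at 271 ± 13.3 and CLDN11 at 249 ± 89.7. MBP lay above UGT8 without overlap, but CLDN11 at 353 in library 1 was above MBP at 344 in library 2. Over all libraries MBP ranked 12 of 30742 by total count and 161 by count per length.

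Heat exposure was then compared within whole brain, to ask which genes of the lineage differed between ETM and CT embryos. CLDN11, OLIG2, SOX10, CSPG4 and NKX6-2 were lower in ETM whole brain and none of the 9 genes was higher, at an adjusted p below 0.05 in the edgeR quasi-likelihood test. Thus 5 of 9 were lower where 23.2% of all 15305 genes tested were lower, and 0 of 9 were higher where 21.1% were. DESeq2 called 4 of 9 lower, without NKX6-2 (adjusted p = 0.105), and 0 higher, where it called 3430 of 25017 genes lower and 3011 higher. At an unadjusted p below 0.05 in edgeR there were the 5 genes named above and no other of the 9. The same 5 genes had every ETM library below every CT library, which held for 28.3% of all genes tested. The median log2 fold change of the 9 genes was -0.48, beside 0.012 over all genes tested. The 9 genes were chosen with earlier results of these data known, so these counts are not a test of the set.

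CLDN11 fell by 1.13 ± 0.13 (SE) on the log2 scale, with an adjusted p of 0.000156 and group means of 129 CPM in CT and 58.9 CPM in ETM at the scaling of these 6 libraries. For OLIG2 the change was -1.01 ± 0.084 (adjusted p = 5.65e-05), for SOX10 -0.96 ± 0.14 (adjusted p = 0.000543) and for CSPG4 -0.89 ± 0.10 (adjusted p = 0.000137). With any 1 of the 6 libraries left out, the change stayed between -1.25 and -0.997 for CLDN11, between -1.06 and -0.96 for OLIG2, between -1.09 and -0.83 for SOX10 and between -0.94 and -0.85 for CSPG4, and the 4 genes were called each time. NKX6-2 fell by 0.48 ± 0.18 with an adjusted p of 0.0497. Its call was lost in 11 of 18 alternatives, among them each of the 6 in which 1 library was left out, where the adjusted p of NKX6-2 reached 0.139.

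The remaining 4 genes did not pass the test. MBP had a log2 difference of 0.25 ± 0.14 (95% interval -0.062 to 0.56, adjusted p = 0.174), UGT8 of 0.047 ± 0.13 (-0.25 to 0.34), PDGFRA of 0.014 ± 0.081 (-0.17 to 0.19) and TMEM88B of 0.025 ± 0.17 (-0.36 to 0.41). The interval of PDGFRA was the narrowest of these, and its lower bound lay well above the estimate of CSPG4, the other precursor gene. By role, those lower were 1 of 2 precursor genes, 3 of 3 transcription factors and CLDN11, and those not called were PDGFRA, the myelin genes MBP and UGT8, and TMEM88B. No difference between these roles was tested.

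Markers of other cell types were read in the same comparison, where 23.2% of all genes tested were lower in ETM and 21.1% higher. Of 5 markers of meningeal fibroblasts, which also make PDGFRA, 3 were lower and 1 was higher in ETM whole brain, and their sum was 1373 to 1561 CPM in CT and 529 to 629 CPM in ETM. COL1A1, a fibrillar collagen chain of such cells, fell by 1.90 ± 0.12 (adjusted p = 2.58e-05). Most of the sum was COL1A1 and COL1A2, and COL1A2 and COL3A1 also had lower means in ETM. DCN and LUM of that list had higher means in ETM (68.5 and 13.9 CPM) than in CT (57.6 and 9.68 CPM). Of 5 markers of pericytes and vascular smooth muscle, which also make CSPG4, 1 was lower and none higher, and their sum was 126 to 137 CPM in CT and 96.6 to 121 CPM in ETM. PDGFRB, a receptor of pericytes, fell by 0.80 ± 0.097, from a mean of 69.7 CPM in CT to 41.1 CPM in ETM. RGS5, KCNJ8 and ABCC9 of that list had higher means in ETM, and ACTA2 a lower one. The median log2 fold change of the list was 0.0998. The sum of 6 neuron markers was 3398 to 3733 CPM in CT and 4310 to 4980 CPM in ETM, with 3 members higher and 2 lower. Of 5 astrocyte markers 1 was lower and 1 higher, and their sum was 3044 to 3479 CPM in CT and 3088 to 3622 CPM in ETM. GFAP had a mean of 533 CPM in CT and 190 CPM in ETM, and SLC1A3 of 632 and 1015 CPM. AQP4 and GJA1 of that list had higher means in ETM, and SLC1A2 a lower one. Of 5 microglia markers, 4 were tested and 3 were lower, and their median sum was 50.5 CPM in CT and 35.3 CPM in ETM. The hypothalamus markers summed to 77.9 to 82.1 CPM in CT whole brain and 41.7 to 42.7 CPM in ETM whole brain, with 2 of 6 lower. Most of that sum was AVP, at 62.2 to 65.1 CPM in CT and 28.2 to 30.4 CPM in ETM. OTP was at 5.32 to 6.10 CPM in CT and 2.14 to 3.57 CPM in ETM. NKX2-1, at 4.86 to 6.53 and 4.89 to 5.49 CPM, overlapped between CT and ETM, as did POMC. CNP, a marker enzyme of mature oligodendrocytes, was at 561 to 870 CPM in CT and 457 to 648 CPM in ETM. The part of these cell types and regions in the lower levels of the lineage genes was not tested.

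Fold changes in whole brain also varied with the length of a gene. The median log2 fold change was -0.22 among genes in decile 2 of exonic length, counted from the shortest, which holds OLIG2, NKX6-2 and CLDN11, and 0.12 in decile 10, which holds PDGFRA, CSPG4 and MBP. With offsets for chromosome and length, the log2 fold changes were -1.06 for CLDN11, -0.97 for OLIG2, -1.07 for SOX10 and -0.91 for CSPG4, all still called, while NKX6-2 was at -0.32 and not called (adjusted p = 0.183).

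**Figure D2:**
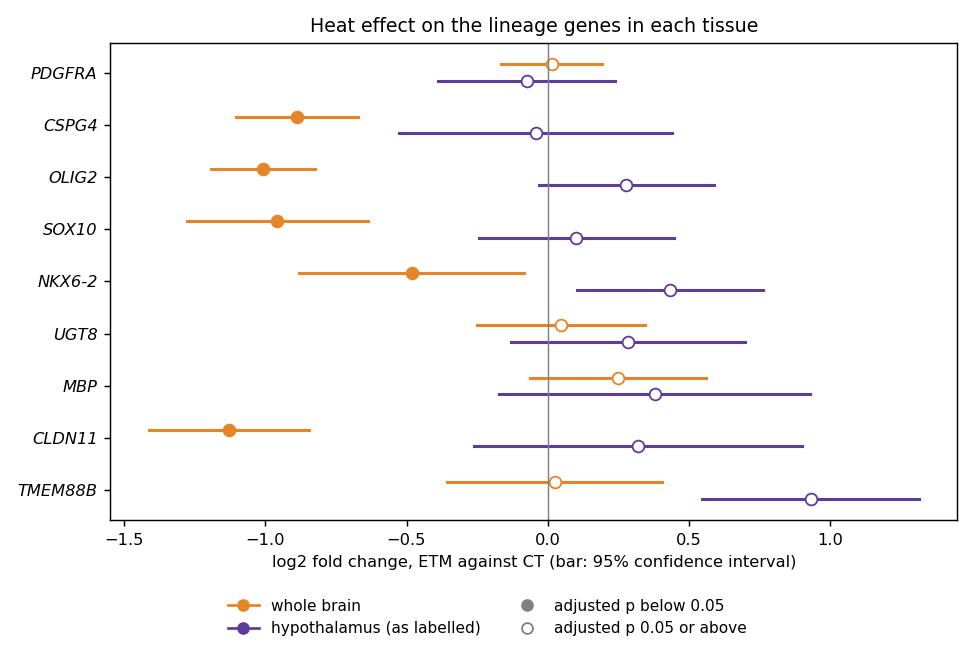
Log2 fold change of ETM against CT (horizontal axis) with its 95% confidence interval for the 9 genes (vertical axis), in whole brain and in the libraries labelled hypothalamus, with filled points at an adjusted p below 0.05. In whole brain CLDN11 (-1.13), OLIG2 (-1.01), SOX10 (-0.96), CSPG4 (-0.89) and NKX6-2 (-0.48) were lower, and in hypothalamus no point was filled.

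Ratios between the genes within a library do not depend on how libraries are scaled. The pairs below were chosen after the values had been seen and are given without a test. There were 11.6, 11.3 and 12.1 counts of MBP for each count of CLDN11 in CT whole brain, and 27.7, 34.7 and 28.1 in ETM whole brain. The ratio of MBP to OLIG2 was 6.59, 8.27 and 8.43 in CT and 17.0, 22.3 and 16.5 in ETM. Both ratios were higher in every ETM whole brain library than in any CT one. MBP is in length decile 10 and CLDN11 and OLIG2 are in decile 2, with median log2 fold changes in whole brain of 0.12 and -0.22. The part of gene length in both ratios was not tested. UGT8 to SOX10 gave 1.61, 1.50 and 1.45 in CT whole brain and 2.75, 3.21 and 3.16 in ETM whole brain. PDGFRA to CSPG4, the 2 precursor genes, gave 4.07, 3.41 and 3.77 in CT and 7.75, 7.22 and 6.09 in ETM. The groups were separate for these ratios as well. SOX10 to OLIG2, 2 genes that were both lower, gave 0.425, 0.542 and 0.534 in CT and 0.511, 0.593 and 0.452 in ETM, which overlapped. In the libraries labelled hypothalamus the ratio of MBP to CLDN11 was 14.7, 16.5 and 14.6 in CT and 12.6, 16.6 and 21.6 in ETM, which also overlapped.

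**Figure D3:**
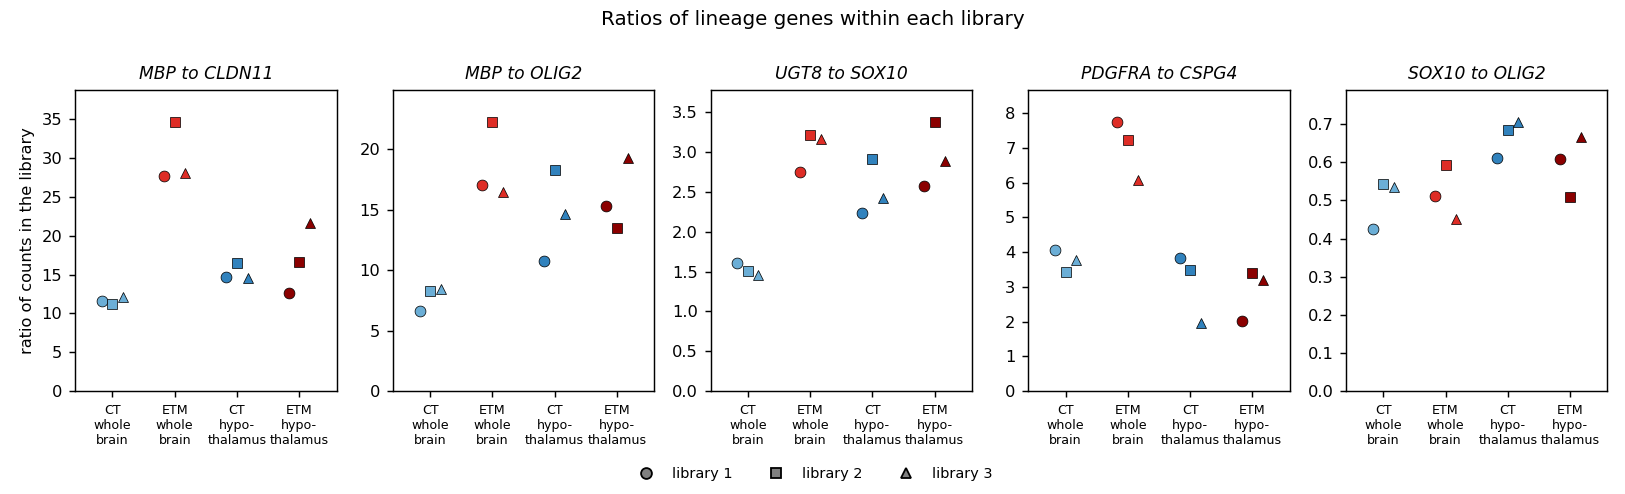
Ratio of the counts of 2 genes within each library (vertical axis, from 0) for 5 pairs, by group, with 1 symbol per library. In whole brain the ratio of MBP to CLDN11 was 11.3 to 12.1 in CT and 27.7 to 34.7 in ETM, while that of SOX10 to OLIG2 overlapped.

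In the libraries labelled hypothalamus the same comparison of ETM with CT called none of the 9 genes, where 0.0454% of 15405 genes tested were called. By DESeq2, and by edgeR with no count filter or with all 12 libraries in 1 fit, 1 of the 9, TMEM88B, was called. These settings called 187 of 24356, 52 of 24356 and 83 of 16201 genes, in that order. At an unadjusted p below 0.05 there were 2 of 9, TMEM88B and NKX6-2, beside 10.3% of all genes tested, and these 2 also had every ETM library above every CT library, beside 8.14% of all genes tested. TMEM88B had a log2 difference of 0.93 ± 0.17 (95% interval 0.55 to 1.31), with an edgeR adjusted p of 0.144 over all genes tested and a DESeq2 adjusted p of 0.000490. NKX6-2 had a log2 difference of 0.43 ± 0.15 (0.10 to 0.76, adjusted p = 0.361).

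The other 7 genes had log2 differences between -0.074 and 0.38. MBP was at 0.38 ± 0.25 (-0.17 to 0.93), CLDN11 at 0.32 ± 0.26 (-0.26 to 0.90), UGT8 at 0.28 ± 0.19 (-0.13 to 0.70) and OLIG2 at 0.28 ± 0.14 (-0.033 to 0.59). SOX10 was at 0.10 ± 0.15, CSPG4 at -0.043 ± 0.22 and PDGFRA at -0.074 ± 0.14. Of the 9 genes 7 had a positive difference, and their median was 0.28 beside 0.0073 over all genes tested. Several of these values moved with the library left out. Over the 6 such fits MBP ranged from 0.16 to 0.68 and UGT8 from 0.11 to 0.52, each lowest without CT hypothalamus library 1 and highest without CT hypothalamus library 2. Without CT hypothalamus library 1 SOX10 was at -0.0070. CSPG4 was at 0.27 without CT hypothalamus library 3 and 0.052 without ETM hypothalamus library 3. Without ETM hypothalamus library 1 CLDN11 was at -0.0094, SOX10 at -0.036 and PDGFRA at 0.045, while TMEM88B was at 0.95 (adjusted p = 0.107) and NKX6-2 at 0.41 (adjusted p = 0.261). OLIG2 was at 0.17 without that library. With its recovered reads OLIG2 was at 0.45, NKX6-2 at 0.66, TMEM88B at 1.13 (adjusted p = 0.263), MBP at 0.25 and UGT8 at 0.26. By library totals alone the level of MBP in ETM hypothalamus library 1 was 6934 CPM from the count column and 5126 CPM from the recovered reads, and that of TMEM88B was 65.4 and 92.1 CPM.

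CNP was at 1314 to 2557 CPM in these libraries in CT and at 2033 to 3241 CPM in ETM, and the groups overlapped. FOXD3, a marker of the neural crest, from which Schwann cells come, was at 0.272 to 12.1 CPM in CT and at 0 to 0.569 CPM in ETM. SOX10 is also made by such cells, and their part in its level was not tested. Sums of regional markers also varied between these libraries. Midbrain and hindbrain markers summed to 125 to 144 CPM in CT and 76.4 to 169 CPM in ETM. Hypothalamus markers summed to 18.9 to 60.5 CPM in CT and 19.8 to 31.8 CPM in ETM. The part of regional content in the heat differences under this label was not tested.

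Whether heat exposure differed in its effect between the tissues was tested as the difference of both changes, hypothalamus minus whole brain, in 1 fit of all 12 libraries. That difference was positive for 6 of the 9 genes and negative for none at an adjusted p below 0.05, where 11.9% of 16201 genes tested were called as positive and 12.3% as negative. CLDN11 differed by 1.41 ± 0.34 (adjusted p = 0.0116), OLIG2 by 1.25 ± 0.16 (adjusted p = 0.00139), SOX10 by 1.02 ± 0.24 (adjusted p = 0.0101) and NKX6-2 by 0.88 ± 0.20 (adjusted p = 0.00958). These 4 calls held in all 24 alternatives. TMEM88B differed by 0.87 ± 0.27 (adjusted p = 0.0328) and CSPG4 by 0.81 ± 0.27 (adjusted p = 0.0436).

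The last 2 calls were less steady. TMEM88B lost its call in 9 of 24 alternatives, among them the removal of CT hypothalamus library 1 or 2, ETM hypothalamus library 2 or of library 2 or 3 of either whole brain group, with adjusted p up to 0.0737. With offsets for chromosome and length TMEM88B was at 0.53 (adjusted p = 0.166). CSPG4 lost its call in 14 of 24, among them the removal of any library other than CT hypothalamus 3 and ETM hypothalamus 3. The adjusted p of CSPG4 was up to 0.0926 on such a removal and 0.114 by limma on log2(FPKM + 1). With the recovered reads of ETM hypothalamus library 1, CSPG4 was at 1.10 (adjusted p = 0.0663) and CLDN11 at 1.55 (adjusted p = 0.0303). OLIG2 was then at 1.43, SOX10 and NKX6-2 were at 1.11 and TMEM88B was at 1.07, all still called. Without that library CLDN11 differed by 1.10 (adjusted p = 0.0158), OLIG2 by 1.16, SOX10 by 0.90, NKX6-2 by 0.87, TMEM88B by 0.91 (adjusted p = 0.0417) and CSPG4 by 0.71 (adjusted p = 0.0838). The difference was not called for MBP at 0.091 ± 0.32 (-0.59 to 0.77), UGT8 at 0.20 ± 0.26 (-0.36 to 0.75) or PDGFRA at -0.13 ± 0.16 (-0.47 to 0.22). For TMEM88B the log2 differences within the tissues were 0.93 in the libraries labelled hypothalamus and 0.025 in whole brain. Markers of other cell types were read in this test beside the 11.9% of all genes tested called as positive and the 12.3% called as negative. Of meningeal fibroblast markers 3 of 5 (median 1.11) and of ependyma markers 2 of 5 (median 0.91) were called as positive and none as negative. Of neuron markers 3 of 6 (median -0.37) were called as negative and none as positive. The ependyma markers summed to 63.5 to 78.5 CPM in CT and 76.6 to 130 CPM in ETM hypothalamus, and to 56.5 to 68.7 CPM in CT and 50.7 to 58.7 CPM in ETM whole brain. Their part in the differences of the 9 genes was not tested.

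The tissue labels were compared in each treatment. In CT embryos the hypothalamus label carried the higher level of all 9 genes, where 16.7% of genes tested were higher, and all 9 were without overlap, as were 24.1% of genes tested. NKX6-2 was higher by 2.12 ± 0.14 on the log2 scale (adjusted p = 2.74e-07), UGT8 by 2.04 ± 0.19 (adjusted p = 3.92e-06) and MBP by 1.79 ± 0.23 (adjusted p = 6.09e-05), which is 3.46-fold for MBP. CLDN11 was higher by 1.39 ± 0.24, SOX10 by 1.28 ± 0.17, OLIG2 by 0.87 ± 0.11, TMEM88B by 0.83 ± 0.19 and CSPG4 by 0.79 ± 0.19. The call of CSPG4 was lost in limma on the deposited FPKM (adjusted p = 0.0901 and 0.0786 at the 2 pseudocounts). PDGFRA had the smallest difference at 0.41 ± 0.11 (adjusted p = 0.0131), and its call was lost without CT hypothalamus library 2 (adjusted p = 0.0604), CT whole brain library 2 (0.0560) or CT whole brain library 3 (0.0613).

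In ETM embryos the same direction was called for all 9 genes, where 29.3% of genes tested were higher under the hypothalamus label, and 8 of 9 were without overlap beside 31.0% of genes tested. The exception to the separation was PDGFRA, at 0.29 ± 0.11 with an adjusted p of 0.0442. That call was lost in 18 of 25 alternatives, among them the removal of any library other than ETM hypothalamus 1, and without ETM hypothalamus library 2 PDGFRA was at 0.15 (adjusted p = 0.245). NKX6-2 was higher by 2.99 ± 0.15 (7.97-fold, adjusted p = 8.94e-09) and CLDN11 by 2.80 ± 0.26 (6.95-fold, adjusted p = 1.28e-06). SOX10 followed at 2.30 ± 0.18, UGT8 at 2.24 ± 0.19, OLIG2 at 2.12 ± 0.12, MBP at 1.88 ± 0.23, TMEM88B at 1.69 ± 0.19 and CSPG4 at 1.60 ± 0.19. With the recovered reads of ETM hypothalamus library 1, 8 of the 9 genes were called and PDGFRA was not (adjusted p = 0.0958). The tests of the difference between the treatments are those given above for the heat effect.

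Other markers were read between the tissue labels in CT embryos, where 16.7% of all genes tested were higher under the hypothalamus label and 17.6% lower. In CT embryos 5 of 5 tested markers of pericytes and vascular smooth muscle and 5 of 5 tested markers of midbrain and hindbrain were higher under the hypothalamus label, and 4 of 4 pallium markers and 4 of 5 meningeal fibroblast markers were lower. The markers of pericytes and vascular smooth muscle summed to 199 to 259 CPM in CT hypothalamus and 126 to 137 CPM in CT whole brain. Of 5 endothelium markers 4 were higher and none lower, and of 6 neuron markers 2 were higher and 2 lower. The part of these cell types and regions in the tissue differences of the 9 genes was not tested.

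**Figure D4:**
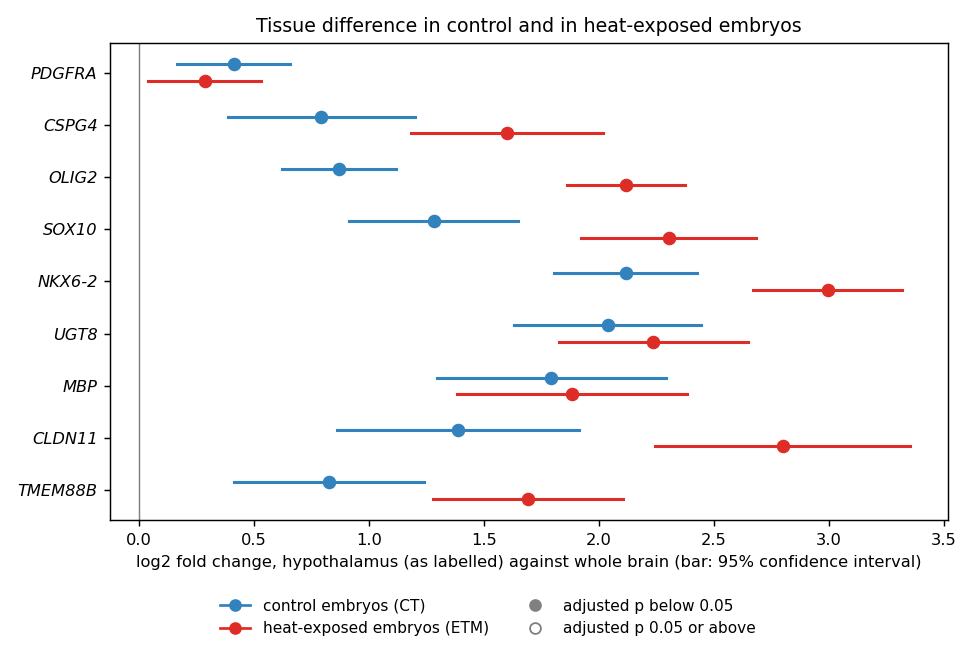
Log2 fold change of the libraries labelled hypothalamus against whole brain (horizontal axis) with its 95% confidence interval for the 9 genes (vertical axis), in CT and in ETM embryos. All points lie above 0, from 0.41 for PDGFRA to 2.12 for NKX6-2 in CT and from 0.29 to 2.99 for the same genes in ETM.

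Some libraries were high or low within their group for most of the 9 genes together. CT hypothalamus library 1 was below its group's mean log2 level for all 9 genes, with a median deviation of -0.37. CT hypothalamus library 2 was above it for 8 of 9. In whole brain, CT library 1 and ETM library 3 were each above their group's mean for 1 of 9 genes, and ETM library 2 for 8 of 9. The coefficient of variation of MBP was 35.0% in CT hypothalamus and 14.2% in ETM hypothalamus, and that of CLDN11 was 36.0% in ETM hypothalamus. PDGFRA in CT whole brain (5.47%), UGT8 in ETM hypothalamus (4.91%) and TMEM88B in ETM hypothalamus (2.70%) varied least among the values named here. Genes of the female-specific W chromosome took 0.113% to 0.147% of the counts in 3 libraries (CT hypothalamus 3, ETM hypothalamus 2 and ETM whole brain 1) and 0.0105% to 0.0174% in the other 9.

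For each of the 9 genes the closest profiles over the 12 libraries were sought among 11816 named genes with a mean of at least 1 CPM, by the root mean square difference of log2(CPM + 1) values centred on each gene's own mean. The nearest to OLIG2 was PRAG1 at 0.0775 and then RTKN at 0.119, where OLIG2 itself varied with an SD of 0.865. CLDN11 lay nearest to MYRF, at 0.159, and to EVA1CL, at 0.174. MYRF is a transcription factor that activates myelin genes in the mouse. UGT8 and MBP lay 0.200 apart and shared RRBP1 as nearest gene, at 0.197 from UGT8 and 0.185 from MBP, and HAPLN1 was the second nearest to MBP at 0.191. SOX10 was nearest to TUBA4A (0.150) and TLCD2 (0.176), and NKX6-2 to SNCG (0.224) and to ERMN (0.238), a cytoskeletal protein of oligodendrocytes. For CSPG4 the nearest were RAPGEF3 (0.132) and ZBTB32 (0.150), for PDGFRA B3GALT6 (0.0665) and TMEM117 (0.0798), and for TMEM88B SERINC4 (0.189) and SGK2 (0.197). The small distances of PDGFRA go with its small SD over the libraries, 0.220.

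The wider lineage was read from 6 lists of 128 genes, of which 118 were found by symbol. These lists too were chosen with earlier results of these data known. Counts in whole brain are to be read beside the 23.2% of all genes tested that were lower in ETM and the 21.1% that were higher. There, 9 of 19 transcription factors were lower in ETM and 1 higher, with a median log2 fold change of -0.41 beside 0.012 over all genes tested, and outside the 9 genes themselves 6 of 16 were lower and 1 higher. MYRF fell from 69.1 to 33.7 CPM (-1.03 ± 0.17, adjusted p = 0.000774), SOX8, a close relative of SOX10, fell by 0.64 ± 0.087 (adjusted p = 0.000320) and ID4, which restrains differentiation in the mouse, fell by 0.41 ± 0.084 (adjusted p = 0.00266). OLIG3 was also lower, but with means under 1 CPM in both groups. Of 16 precursor cell genes 7 were lower and 3 higher (median -0.15), or 6 and 3 of the 14 outside the 9 genes, beside the same 23.2% and 21.1%. Of the 5 precursor markers in that list, PDGFRA and CSPG4 among them, 2 were lower and none higher (median -0.0027). PTPRZ1 and LHFPL3 had higher means in ETM (942 and 81.5 CPM) than in CT (917 and 69.3 CPM), and C1QL1 a lower one (13.6 against 19.4 CPM). BCAN, the brain proteoglycan brevican, fell from 651 to 299 CPM (-1.12 ± 0.092, adjusted p = 5.65e-05), and GPR37L1 fell by 0.78 ± 0.12, XYLT1 by 0.58 ± 0.11 and TNR, a matrix glycoprotein, by 0.68 ± 0.13. In 1 fit of all 12 libraries TNR was not called (adjusted p = 0.0772). The part of other cell types, astrocytes among them, in these falls was not tested.

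Of 25 myelin membrane and cytoskeleton genes 7 were lower and 3 higher in whole brain (median -0.16), or 6 and 3 of the 22 outside the 9 genes. The share lower was near the 23.2% over all genes tested. PLLP, a membrane protein of myelin, fell from 14.1 to 5.24 CPM (-1.43 ± 0.23, adjusted p = 0.000819), and GSN, which severs actin filaments, fell by 0.58 ± 0.075. TPPP, which promotes the assembly of tubulin, rose by 1.16 ± 0.15 (adjusted p = 0.000292). HAPLN2, a matrix protein of nodes of Ranvier, fell by 0.72 ± 0.15, but was at -0.093 (adjusted p = 0.640) with offsets for chromosome and length. Of 11 genes of premyelinating cells 2 were lower and 1 higher (median -0.11), shares below the 23.2% and 21.1% over all genes tested. SIRT2, a deacetylase of myelin, fell by 0.69 ± 0.092, but was at -0.078 (adjusted p = 0.484) with the offsets. GPR17, a receptor of cells about to differentiate, fell by 0.46 ± 0.11, TMEM163 rose by 0.37 ± 0.093 and BCAS1 was at -0.20 ± 0.13, not called. With the offsets the premyelinating list had 6 lower and 1 higher (median -0.27).

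Among 19 lipid and metabolic genes of myelin 6 were lower and 2 higher, beside 23.2% and 21.1% of all genes tested, with a median of -0.0079 whose sign turned with the scaling (0.014 by library totals). GAL3ST1, which makes sulfatide from the product of UGT8, fell by 0.68 ± 0.10 (adjusted p = 0.000577), and CARNS1, carnosine synthase, fell by 1.55 ± 0.25. CERS2, a ceramide synthase, fell by 0.76 ± 0.12 but was at -0.15 (adjusted p = 0.321) with the offsets, and SCD, a fatty acid desaturase, fell by 0.50 ± 0.087 but was not called in 1 fit of 12 libraries (adjusted p = 0.0560). Of 24 signals of the lineage 9 were lower and 4 higher (median -0.14), beside the same shares. SMO, which transmits the hedgehog signal, fell by 1.00 ± 0.094 (adjusted p = 8.79e-05), FGFR1 fell by 0.78 ± 0.081, BMP4, a ligand that holds back oligodendrocyte formation, fell by 1.31 ± 0.15, and CNTFR fell by 0.65 ± 0.098.

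In the libraries labelled hypothalamus 0 genes of any of the 6 lists were called for heat exposure by edgeR with its count filter and these 6 libraries, with 18, 16, 11, 25, 18 and 24 genes tested and 6, 1, 0, 4, 4 and 5 of them at an unadjusted p below 0.05, in the order transcription factors, precursor, premyelinating, myelin membrane, lipid, signals. Over all genes tested 10.3% were at an unadjusted p below 0.05. The medians of the lists, in the same order, were 0.20, -0.069, 0.012, 0.25, 0.14 and 0.067. With no count filter edgeR called 52 of 24356 genes, among them TMEM88B and TF (adjusted p = 0.0183 and 0.0393). In 1 fit of 12 libraries edgeR called 83 of 16201 genes, among them TMEM88B (adjusted p = 0.0481). DESeq2 called 187 of 24356 genes. Genes of these lists that DESeq2 called, beside TMEM88B, included TF, transferrin, with an edgeR log2 difference of 0.85 ± 0.19 and adjusted p of 0.00632 by DESeq2 and 0.201 by edgeR with the filter, and HMGCS1, an enzyme of cholesterol synthesis, at -0.59 ± 0.14 with 0.00993 and 0.204. HES5, a target of Notch signalling, was also among them, at 1.72 ± 0.53 with 0.0465 and 0.302.

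Between the tissues in CT embryos 21 of 25 myelin membrane genes and 13 of 19 lipid genes were higher under the hypothalamus label, with 1 and 2 lower and medians of 1.09 and 0.50, beside 16.7% of all genes tested that were higher and 17.6% that were lower. Of 11 premyelinating genes 8 were higher and none lower, with BCAS1 at 1.33 ± 0.14 and GPR17 at 1.38 ± 0.15. Transcription factors were mixed, with 8 of 19 higher and 4 lower, NKX2-2, a factor of the lineage, at 1.35 ± 0.12 and ID2 at -1.19 ± 0.096. Precursor genes had 6 of 16 higher and 2 lower, C1QL1 at 1.44 ± 0.17 and CACNG4 at -0.77 ± 0.084, and signals had 7 of 25 higher and 5 lower. SHH, the ligand of the hedgehog pathway, was higher by 1.57 ± 0.19. In ETM embryos 20 of 25 myelin membrane genes were higher and 2 lower (median 1.43), and 9 of 19 lipid genes were higher and 1 lower (median 0.44), where 29.3% of all genes tested were higher and 29.6% lower. Of these, PLLP (4.14 ± 0.37) and CARNS1 (4.07 ± 0.25) had the largest differences of the genes named in that comparison.

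**Figure D5:**
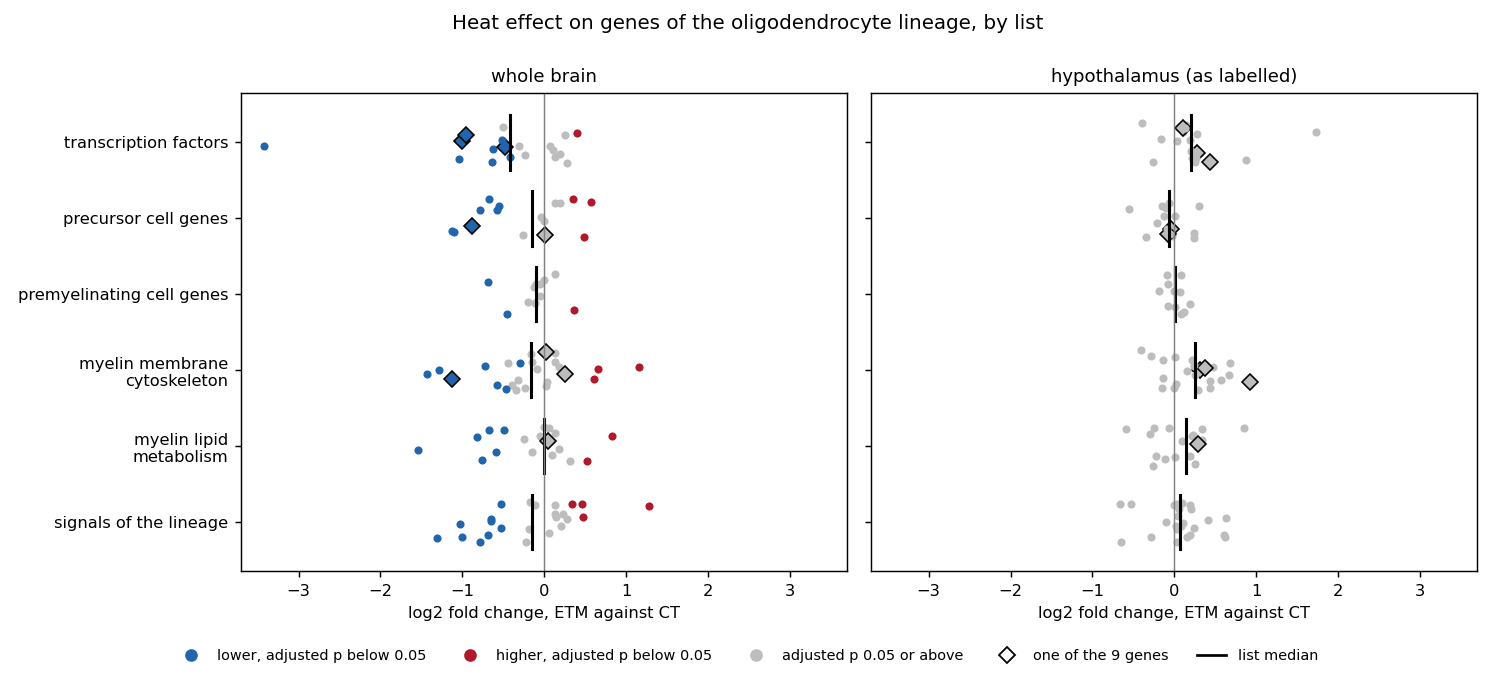
Log2 fold change of ETM against CT (horizontal axis) for each gene tested in 6 lists of the lineage (vertical axis), in whole brain and in the libraries labelled hypothalamus, with diamonds for the 9 genes and a bar at each list's median. In whole brain 9 of 19 transcription factors were lower and 1 higher (median -0.41), beside 23.2% and 21.1% of all genes tested, and in the libraries labelled hypothalamus no gene of the lists was called in the test plotted.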

How the data were processed

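RNA-seq libraries from 12 samples in 4 groups of 3 were used, grouped by the tissue and treatment labels. Per the submitters' processing notes, the authors' tools were featureCounts, Subread 2.0.6 and DESeq2 3.5.0, on genome build GRCg7b. Aligner, strand setting and multimapping rule: not given in the sources used here. The authors deposited raw counts per gene and FPKM values (counts scaled to gene length and library size) for the same genes. In 11 of the 12 libraries the deposited FPKM followed the counts to within 0.1%, and in ETM hypothalamus library 1 this held for 0.282% of values. Reads recovered from that FPKM column were whole to within 0.01 for 100% of values. Entries with no gene name (634, with 0.513% of all counts) were left in.

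Tests on the counts used edgeR 4.0.16 under R 4.3.3 (TMM scaling, filterByExpr, quasi-likelihood F test), with Benjamini-Hochberg adjustment over all genes tested and a threshold of 0.05. Heat exposure was tested within the 6 libraries of each tissue, and tissue differences and the difference in the heat effect in 1 fit of 12 libraries. The SE was derived from the F statistic and the unshrunk fold change, and intervals are at 95%. Levels are CPM after TMM scaling of 12 libraries. The edgeR test of each comparison was run on simulated counts as a check of the code, and the alternatives below were not. Every pair of libraries within a group differed beyond counting error (chi-square per degree of freedom 5.46 to 34.6 over 12 pairs), so none was counted as a duplicate.

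Alternatives tried were DESeq2 1.42.0, RLE factors or library totals, no or another count filter, a restriction to protein-coding genes, other samples in the fit, a replicate block, limma 3.58.1 on log2(FPKM + 1) and log2(FPKM + 0.1), the recovered reads, a threshold of 0.1 and each library left out in turn. Offsets for chromosome, exonic length and genomic span were added after the data were seen. Genes named are the 9 genes, up to 4 others per list and comparison with the lowest p, the 2 nearest profiles of each gene, and cell type markers as levels. A few genes chosen this way are not reported here. COL1A1 and PDGFRB were given with their changes, and CNP and FOXD3 with their levels, after their values were seen. So were the levels of other fibroblast, pericyte, astrocyte, hypothalamus and oligodendrocyte precursor markers in CT and ETM whole brain. The 9 genes and all lists were chosen with earlier results of these data known.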

Additional observations from a re-analysis of the deposited data

Results flagged for a closer look

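For 25 of the genes reported here the effect of heat exposure differed between the libraries labelled hypothalamus and whole brain. That was by the edgeR test of the difference, at an adjusted p below 0.05. Genes outside the 9 were picked by low p, in part in this same test, so the number 25 follows in part from that choice. Of all 16201 genes tested 11.9% were called as positive and 12.3% as negative. Differences are hypothalamus minus whole brain on the log2 scale, for the 9 lineage genes and for the genes with the lowest p in each list, and they share the control libraries of both tissues. Of the 9 genes these were CLDN11 at 1.41, OLIG2 at 1.25, SOX10 at 1.02, NKX6-2 at 0.878, TMEM88B at 0.868 and CSPG4 at 0.807, the last 2 with the lost calls given above.

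Among other transcription factors the difference was 0.843 for NKX2-2, 0.739 for SOX8 and 0.657 for ID4. In the precursor list it was 1.10 for BCAN, 1.05 for GPR37L1, -0.666 for LUZP2 and -0.537 for CACNG4. SIRT2 of the premyelinating list was at 0.664. The myelin membrane list had PLLP at 2.07, GSN at 0.407 and TPPP at -1.33. Of the lipid genes CARNS1 was at 1.86, CERS2 at 1.01, GAL3ST1 at 0.871 and HMGCS1 at -0.712. Signals of the lineage had BMP4 at 1.27, SMO at 1.17, FGFR1 at 0.841 and IGF1, a growth factor at under 3 CPM here, at -2.17.

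Some of these calls were lost under at least 1 of 24 alternatives. That was so for LUZP2 in 11, GSN in 9, SOX8 in 7, GAL3ST1 in 2, and CERS2 and HMGCS1 in 1 each, and SIRT2 changed sign in 1. The part of other cell types and of ETM hypothalamus library 1 in these differences was not tested beyond the values given with the results.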

How the results depend on the processing

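Of the fold changes of named genes recomputed under each alternative, 3520 kept their direction and their side of the threshold, 95 lost a call, 19 gained one and 28 changed sign. The 9 genes called numbered 4 to 5 over 18 alternatives for heat in whole brain, 4 to 6 over 24 for the difference between tissues, 8 to 9 over 25 for each tissue comparison, and 0 to 1 over 19 for heat in the libraries labelled hypothalamus, with 1 in DESeq2, with no count filter and in 1 fit of 12 libraries. Genes called in that last comparison numbered 7 at first, 187 by DESeq2, 52 with no filter, 83 in 1 fit of 12 libraries, 13 at a threshold of 0.1, 2 with the replicate block, 0 by limma on FPKM at either pseudocount, 0 with the recovered reads, and 0 to 39 with 1 library left out (39 without ETM hypothalamus 1, 4 without ETM hypothalamus 2, 0 without any of the others). For the difference between tissues 3917 genes were called, 2120 and 2020 by limma on FPKM, and 2340 to 4195 with 1 library left out, the lowest without CT whole brain 2 (2340) and ETM whole brain 2 (2492).

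Changes of sign occurred in genes that were not called, apart from SIRT2. For heat in the libraries labelled hypothalamus CSPG4 was at 0.000310 with the replicate block, 0.20 and 0.22 by limma on FPKM and 0.25 with the recovered reads. With offsets for chromosome and length, heat in whole brain gave -0.17 for PDGFRA, -0.13 for UGT8 and -0.073 for MBP, and the difference between tissues gave 0.11 for PDGFRA and -0.058 for SIRT2. MBP was at -0.040 in that difference with the recovered reads. With 1 library left out, heat in the libraries labelled hypothalamus ranged from -0.22 to 0.045 for PDGFRA, -0.22 to 0.27 for CSPG4, -0.036 to 0.21 for SOX10 and -0.0094 to 0.54 for CLDN11. Heat in whole brain ranged from -0.025 to 0.062 for PDGFRA, -0.10 to 0.15 for UGT8 and -0.18 to 0.19 for TMEM88B, and the difference between tissues from -0.27 to 0.013 for PDGFRA and -0.13 to 0.40 for MBP. The cause was not tested.

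Same-numbered libraries did not deviate together (correlations -0.36 to 0.107), so the number was not taken as a pairing. The replicate block ended the calls of NKX6-2 in whole brain (adjusted p = 0.0739), of CSPG4 (0.84, adjusted p = 0.0607) and TMEM88B (0.87, adjusted p = 0.0611) in the difference between tissues and of PDGFRA between tissues in ETM embryos (0.28, adjusted p = 0.0571). Levels per length from the deposited FPKM were over 1 SD from those given for 4 of 36 values, all in ETM hypothalamus (CSPG4 9.69, NKX6-2 24.6, UGT8 255, TMEM88B 34.4). With 3 libraries a group the least exact permutation p is 0.1, and a scarce gene such as NKX6-2 in whole brain, at under 7 CPM, carries more counting error.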
